A study of Mus musculus with 4 samples.

Results

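The genes described here encode the proteins of the small subunit of the cytosolic ribosome. They were chosen by symbol: Rpsa, every gene named Rps with a number (alone or followed by x, l or l1) and Fau, without pseudogenes and without the S6 kinases. Of 22180 genes with an array row that names 1 gene symbol, 25 met the rule. Thy1+ LSK cells, a lineage-negative, Sca-1- and Kit-positive bone marrow fraction enriched for haematopoietic stem cells, had been sorted from C57BL/6 mice aged 11 to 18 months. In all, 2 arrays came from Nol3+/+ mice and 2 from Nol3-/- mice that the labels mark as MPN, taken here as myeloproliferative neoplasm. The cells were uncultured and untreated, and a reading of the series title in which both genotypes had MPN is possible. The labels do not give the number of animals behind an array, so p-values measure the spread between these arrays, which may be technical.

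The small (40S) subunit binds the messenger RNA, scans it to the start codon and decodes it, while the large subunit joins amino acids. Its proteins are built onto ribosomal RNA in the nucleolus, and each is needed in equal number per ribosome. Blood formation is sensitive to them: loss of 1 copy of several of these genes causes Diamond-Blackfan anaemia in people, RPS14 is lost in the 5q- syndrome, and haematopoietic stem cells are known for a low rate of protein synthesis. Messenger RNAs of ribosomal proteins typically begin with a terminal oligopyrimidine (TOP) tract, a C followed by further C or T bases, through which the mTORC1 pathway and the RNA-binding protein LARP1 adjust their translation.

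The annotated start sites show how far this tract is visible in the genes that the results turn on. The RefSeq windows below (build GRCm38.p6) cover 15 bases before and 15 bases from the annotated start of transcription, 5′ to 3′ on the gene's strand. Capitals mark the longest run of C and T bases that begins with C and has at least 5 bases. Rpsa, Rps10, Rps25 and Rps15 are shown because they differed most between the groups by p, and Rps6, Rps18 and Fau as members with a long run at the start.
Rpsa (chr9:120127751-120127780, plus strand): gtgggttatttaaggacgtcatttccggcc
Rps10 (chr17:27635230-27635259, minus strand): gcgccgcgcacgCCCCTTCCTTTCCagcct
Rps25 (chr9:44407699-44407728, plus strand): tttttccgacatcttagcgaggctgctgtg
Rps15 (chr10:80292416-80292445, plus strand): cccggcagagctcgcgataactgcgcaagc
Rps6 (chr4:86857353-86857382, minus strand): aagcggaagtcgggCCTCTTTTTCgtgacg
Rps18 (chr17:33955651-33955680, minus strand): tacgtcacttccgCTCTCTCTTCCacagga
Fau (chr19:6057932-6057961, plus strand): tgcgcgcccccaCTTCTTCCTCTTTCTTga
The run began 1 to 3 bases before the annotated start in Rps6, Rps18, Rps10 and Fau and was 10 to 16 bases long. No run of at least 5 bases lay in the windows of Rpsa, Rps25 and Rps15, which says only that these letters are not in these 30 bases. The windows of Rps13, Rps28, Rps3 and Rps4x, whose differences were smaller, held none either. A missing run is thus not particular to the genes that differed most.

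RefSeq promoter windows, reaching from 250 bases before to 50 bases after the start, were found for 21 of the 25 members. A run of 5 or more pyrimidines from a C lay between 20 bases before and 30 bases after the start in 19 of these 21 members (90.5%), against 56.2% of 27025 genes. A run of 8 or more was present in 12 members (57.1%), against 17.0% of genes. Across the whole window, on either strand, CGGAA was present in 17 members (81.0%) against 32.7% of genes, and ATGGCG in 7 (33.3%) against 10.2%. These are the core letters of the ETS-family and YY1 motifs. The GC-box letters GGGCGG occurred in 10 members (47.6%) and in 38.2% of genes, and TATAAA in 1 member (4.76%) and in 15.7% of genes. The windows were thus richer in pyrimidine runs and ETS letters than those of genes at large, and matches describe letters, not bound factors.

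Nol3, the gene the genotypes differ in, read 5.31 and 5.52 on the arrays labelled Nol3+/+ against 5.38 and 5.50 on those labelled Nol3-/- MPN. The groups overlapped, so the loss of the gene was not visible in its signal. Neither the deleted part of the gene nor the place of the probes is given in the sources used here, and a probe outside the deleted part would check nothing. Group names here are therefore those of the labels, and each direction rests on them.

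The values are deposited array signals, treated as log2, and a difference is always Nol3-/- MPN minus Nol3+/+. A row's signal depends on its probes, so signals are compared between arrays and not between genes. Array medians over all rows lay between 5.35 and 5.39. Nol3+/+ replicate 1 was the least similar array. Over all gene rows its r was 0.934 with its replicate and 0.926 and 0.933 with the Nol3-/- MPN arrays. Nol3+/+ replicate 2 had r = 0.947 and 0.959 with the Nol3-/- MPN arrays, above the r with its own replicate. The Nol3-/- MPN arrays had r = 0.961 with each other. Each r is taken across genes, which are not independent. Xist, the RNA of the inactive X chromosome, read 5.43 and 5.28 (Nol3+/+) against 10.88 and 10.69 (Nol3-/- MPN), while the Y-linked Eif2s3y read 6.53 and 7.17 against 4.24 and 3.97, so genotype, the MPN label and sex-linked signal cannot be told apart. Of the markers that the sort names, Kit read 7.39 to 8.38 over the 4 arrays. Thy1, at 4.64 to 5.24, lay near the limit of 4.835 (the 25th percentile of gene rows) under which genes were left out as dim. Ly6a, the gene of Sca-1, had no row naming it alone. Cd34, which the sort label does not name, read 8.65 to 8.82. Of 26 markers fixed for other blood and stromal cells, 17 were tested. The smallest p-values belonged to Pf4 (megakaryocytes), Cd79b (B cells) and S100a8 (granulocytes), with differences of 0.59, 0.50 and -0.86. These reached an unadjusted p under 0.05 by limma, as did 3.73% of all tested genes upward and 2.07% downward. Other tested markers of the same types did not all follow. Itga2b (megakaryocytes) was at -0.19, Mpo and Elane (granulocytes and monocytes) at 0.48 and 0.07, and Cd79a (B cells) at 0.19. Pf4 read 4.68 and 4.80 on the Nol3+/+ arrays, under the limit for dim genes, and entered the fit only through its Nol3-/- MPN signal, so no call is drawn from it, and S100a8 was at -0.44 without Nol3+/+ replicate 2. The mean signal of the list was 5.79 and 5.79 (Nol3+/+) against 5.80 and 5.95 (Nol3-/- MPN). In sorted cells taken in bulk, fewer cells of a type and less RNA per cell cannot be told apart, and the part of cell mixture in the results was not tested.

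Most small-subunit genes read slightly higher in Nol3-/- MPN, and no single gene passed the threshold. Of the 25 members, 22 passed the filter on dim genes. The difference was above 0 in 18 of them and below 0 in 4, against 51.7% of all 16635 tested genes above 0. Both Nol3-/- MPN arrays lay above both Nol3+/+ arrays in 12 members, where the share over all tested genes was 19.7%, and below both in 2, where it was 15.9%. The median difference was 0.19, against 0.01 over all tested genes. By deposited signal the 25 members had a median percentile of 96.4 among gene rows, and 14 were at or above percentile 90. The shares over all tested genes thus come mostly from dimmer rows, and the part of signal level in these counts was not tested. By limma 0 members passed an adjusted p of 0.05 (0.024% of all tested genes did), and 4 reached an unadjusted p under 0.05, 3 higher and 1 lower (3.73% and 2.07% of all tested genes). The adjusted p-values of the members lay between 0.687 and 0.998. With 2 arrays per group, the smallest two-sided p of an exact permutation test of 1 gene is 0.333.

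**Figure D1:**
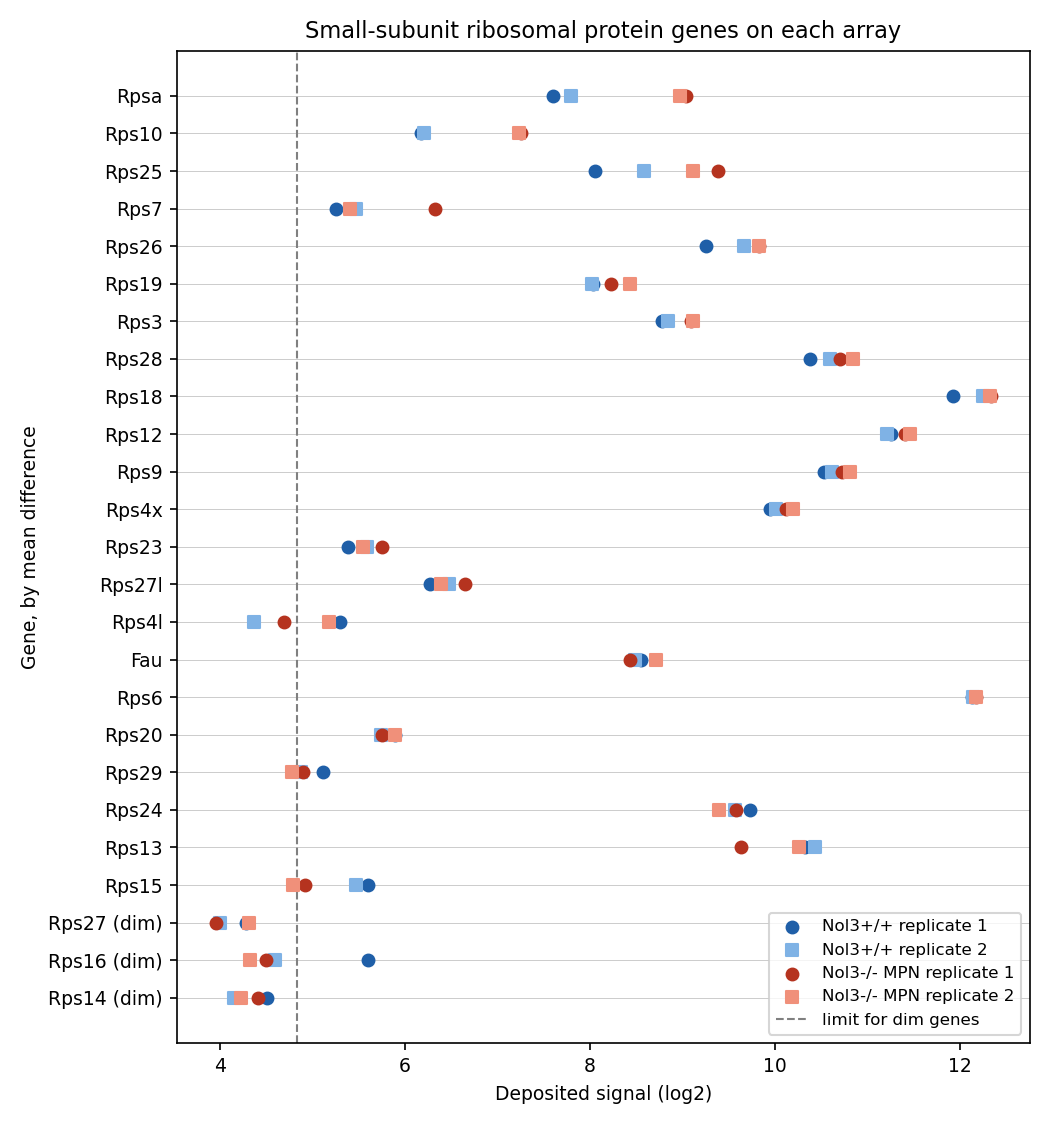
Deposited log2 signal (x axis) of each of the 25 small-subunit genes (y axis, ordered by difference) on each of the 4 arrays, with blue for Nol3+/+, red for Nol3-/- MPN and a dashed line at the limit for dim genes of 4.835. The red points of Rpsa, Rps10 and Rps25 stand to the right of the blue ones, those of Rps15 to the left, and most other genes show points lying close together.

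Rpsa, which encodes a protein of the subunit's platform also known as a laminin receptor, had the largest difference. Its signal was 7.60 and 7.80 (Nol3+/+) against 9.04 and 8.97 (Nol3-/- MPN). The groups did not overlap, and the gaps within them, 0.20 and 0.07, were small beside the difference. That difference was 1.31 log2 units, or 2.47-fold, with an SE of 0.22 and a 95% interval from 0.75 to 1.87 (limma adjusted p = 0.687). A second row of Rpsa read 7.21 and 7.75 against 8.30 and 7.97, also without overlap, with a difference of 0.65.

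Rps10, a protein of the 40S head at the entry side of the messenger RNA and a target of ubiquitination on stalled ribosomes, was the most even member with a large difference. It read 6.18 and 6.20 (Nol3+/+) against 7.26 and 7.24 (Nol3-/- MPN). Both pairs of replicates lay within 0.03 of each other and far from the other pair. The difference was 1.06 (SE 0.18, interval 0.59 to 1.53, limma adjusted p = 0.696), a 2.08-fold higher mean. Leaving out any array kept it between 1.04 and 1.07.

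Rps25, a head protein that certain viral and cellular internal ribosome entry sites require, read 8.06 and 8.59 (Nol3+/+) against 9.38 and 9.12 (Nol3-/- MPN). The groups did not overlap, but Nol3+/+ replicate 1 lay 0.53 below its replicate. The difference was 0.93 (SE 0.27, interval 0.23 to 1.62, limma adjusted p = 0.841). Without Nol3+/+ replicate 1 it was smallest, at 0.66, and without Nol3+/+ replicate 2 it was 1.19. These 3 genes held all the higher members at an unadjusted p under 0.05. The other 19 tested members, a division made after the values were seen, had a median difference of 0.16, with 15 above 0.

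Rps15, a head protein near the decoding site, went the other way. It read 5.61 and 5.47 (Nol3+/+) against 4.92 and 4.79 (Nol3-/- MPN), with no overlap and with gaps of 0.13 within each group. The difference was -0.68 (SE 0.13, interval -1.02 to -0.35, limma adjusted p = 0.795). Its Nol3-/- MPN mean of 4.85 lay at the limit for dim genes, so this is a difference of deposited signals near the level where signal and background cannot be separated. Rps13, a protein of the body, was the other member with both Nol3-/- MPN arrays below: 10.33 and 10.43 against 9.64 and 10.27. That difference of -0.43 (SE 0.25) came largely from Nol3-/- MPN replicate 1, and was -0.11 without it.

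**Figure D2:**
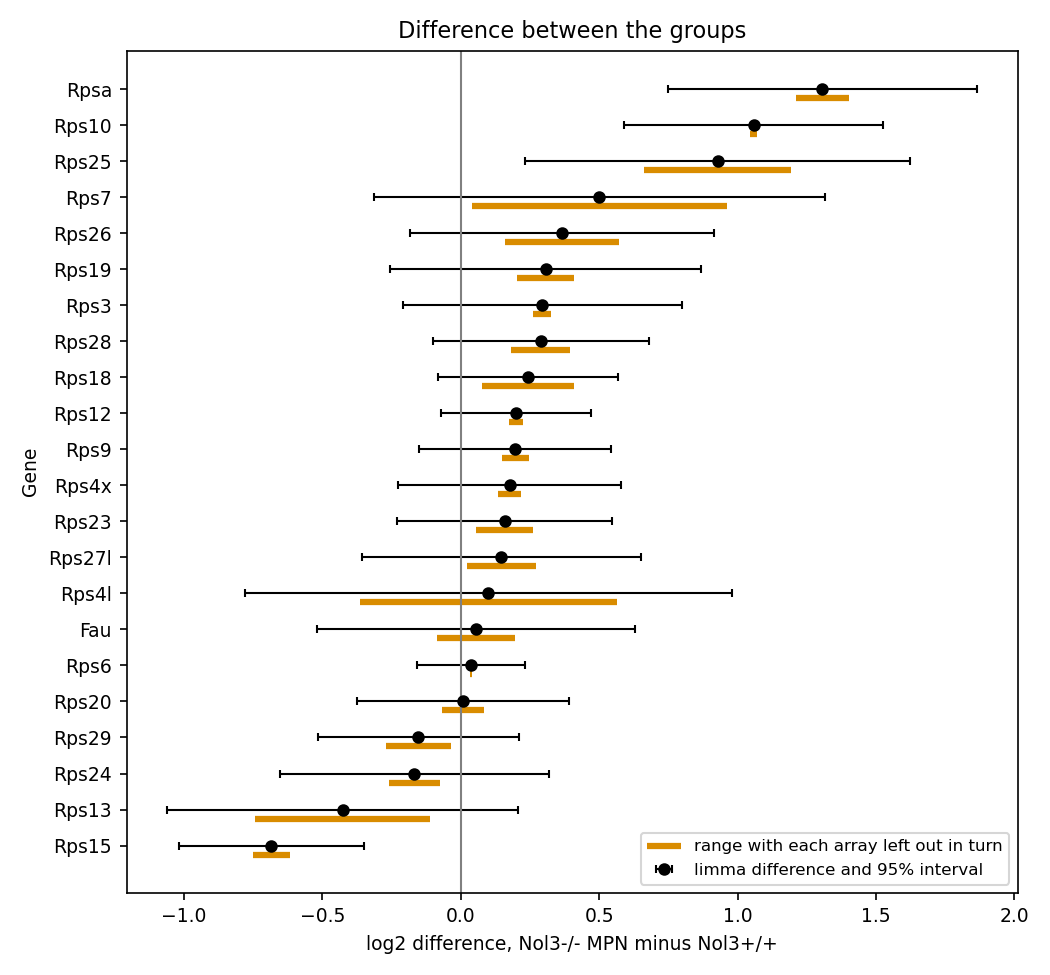
log2 difference between the groups (x axis) of each of the 22 tested genes (y axis), with limma's 95% interval as thin bars and, in orange, the range of the difference when each array is left out in turn. The intervals of Rpsa, Rps10 and Rps25 lie above 0 and that of Rps15 below 0, while the other 18 include 0.

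The remaining head proteins differed by at most 0.31 log2 units. Rps18, which lies where the subunit meets the large one, read 11.92 and 12.25 (Nol3+/+) against 12.34 and 12.32 (Nol3-/- MPN) (difference 0.24, SE 0.13). Rps28 read 10.38 and 10.59 against 10.71 and 10.85 (0.29, SE 0.15), and Rps12 read 11.26 and 11.21 against 11.41 and 11.46 (0.20, SE 0.11). In all 3 the groups did not overlap, and the limma adjusted p was 0.841. Without Nol3+/+ replicate 1 the difference of Rps18 was 0.08 and that of Rps28 was 0.18, and as the mean of all rows of the gene they were 0.14 and 0.13. Rps19, the gene most often mutated in Diamond-Blackfan anaemia, read 8.04 and 8.02 against 8.23 and 8.44, a difference of 0.31 (SE 0.22). Rps3, a head protein of the entry channel that also acts in DNA repair, read 8.78 and 8.84 against 9.09 and 9.11, a difference of 0.29 (SE 0.20). As the mean of its rows Rps19 was at 0.18. These groups too were separate, at limma adjusted p-values of 0.869 and 0.865. Rps20 and Rps29, by contrast, overlapped: 5.89 and 5.74 against 5.75 and 5.89 for Rps20, and 5.11 and 4.88 against 4.90 and 4.78 for Rps29. Their differences were 0.01 and -0.15 (SE 0.15 and 0.14). Rps29 was at -0.04 without Nol3+/+ replicate 1, and its mean of 4.92 was just above the limit for dim genes.

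Among the body and platform proteins, Rps26, which contacts the messenger RNA just upstream of the start codon, read 9.26 and 9.67 (Nol3+/+) against 9.83 and 9.83 (Nol3-/- MPN). The Nol3-/- MPN arrays were nearly identical, Nol3+/+ replicate 1 was low, and the difference was 0.37 (SE 0.22), or 0.16 without that array. Rps9 read 10.53 and 10.62 against 10.72 and 10.82 (0.20, SE 0.14). Rps6, the classical substrate of the S6 kinases, hardly moved: 12.13 and 12.14 against 12.17 and 12.18, a difference of 0.04 (SE 0.08, interval -0.16 to 0.23). Its groups did not overlap, which shows how small a shift meets that criterion. Rps7, which can bind the p53 regulator MDM2, read 5.25 and 5.47 against 6.32 and 5.40. Its difference of 0.50 (SE 0.32) rested on Nol3-/- MPN replicate 1 and was 0.04 without it.

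Rps24, Rps23 and Fau overlapped between the groups. Rps24 read 9.73 and 9.57 (Nol3+/+) against 9.58 and 9.39 (Nol3-/- MPN) (difference -0.17, SE 0.19). Rps23, a protein of the decoding centre, read 5.39 and 5.59 against 5.75 and 5.55 (0.16, SE 0.15). Fau, whose product is a fusion of a ubiquitin-like protein with RPS30, read 8.55 and 8.49 against 8.44 and 8.72 (0.06, SE 0.23). Without Nol3+/+ replicate 1 Rps23 was at 0.05, and without Nol3-/- MPN replicate 2 Rps24 was at -0.08. None of the 3 differences exceeded its interval around 0. Rps14, Rps16 and Rps27 were left out as dim, at means of 4.32, 4.76 and 4.14. Rps16 read 5.61 and 4.59 against 4.50 and 4.33, Rps14 read 4.50 and 4.16 against 4.41 and 4.22, and Rps27 read 4.29 and 3.996 against 3.96 and 4.32. No difference can be read from signals at that level. The limit itself fell between Rps16, just under it, and Rps4l, at 4.88, just above it.

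Both paralogue pairs of the rule were on the array. Rps4x, the X-linked gene of a body protein, read 9.95 and 10.01 (Nol3+/+) against 10.12 and 10.20 (Nol3-/- MPN). The groups did not overlap, with a difference of 0.18 (SE 0.16, interval -0.23 to 0.58) beside the difference in Xist signal given above, whose part in it was not tested. Its autosomal paralogue Rps4l was the least even member, at 5.30 and 4.37 against 4.69 and 5.18 (0.10, SE 0.35). Rps27l, a paralogue of Rps27 known as a p53 target, read 6.27 and 6.48 against 6.64 and 6.39, which overlap (0.15, SE 0.20), and was at 0.02 without Nol3-/- MPN replicate 1. Rps27 itself was dim, so that pair could not be compared.

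Grouped by place in the subunit, the median difference was 0.27 over 10 tested head proteins and 0.17 over 10 tested body and platform proteins. In each group 8 of the 10 lay above 0, beside 51.7% of all tested genes, and the arrays were fully separated upward in 7 head and 5 body or platform proteins, beside 19.7%. Of 8 tested genes linked to Diamond-Blackfan anaemia, 6 lay above 0, with a median of 0.30. Among them 1, Rps10, was higher at an unadjusted p under 0.05 by limma, as were 3.73% of all tested genes. These lists overlap and were not tested against each other.

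The position of single arrays shows where the shift lay. Nol3+/+ replicate 1 held the lowest value in 13 of the 22 members, against 29.5% of all tested genes, and Nol3-/- MPN replicate 2 the highest in 10, against 27.8%. Relative to each gene's mean over the 4 arrays, the median member lay at -0.15 and -0.05 (Nol3+/+) and at 0.06 and 0.13 (Nol3-/- MPN). Set against Nol3+/+ replicate 2 alone, the median member was 0.13 and 0.17 higher in the Nol3-/- MPN arrays. The median of all tested genes was there -0.0041 and 0.04. Those member values are medians of signed differences. On the same measure, replicate 2 minus replicate 1 gave 0.06 in Nol3+/+ and 0.0048 in Nol3-/- MPN. The gaps between replicates given below are medians of differences without sign, so they are a different measure. The part of Nol3+/+ replicate 1 in the shift was not tested. Without Nol3+/+ replicate 1 the median difference was 0.15. The median gap between replicates was 0.15 in Nol3+/+ and 0.13 in Nol3-/- MPN for the members, and 0.20 and 0.18 for all tested genes. In 11 of the 22 members the difference exceeded the gaps within both groups, as it did in 23.0% of all tested genes.

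**Figure D3:**
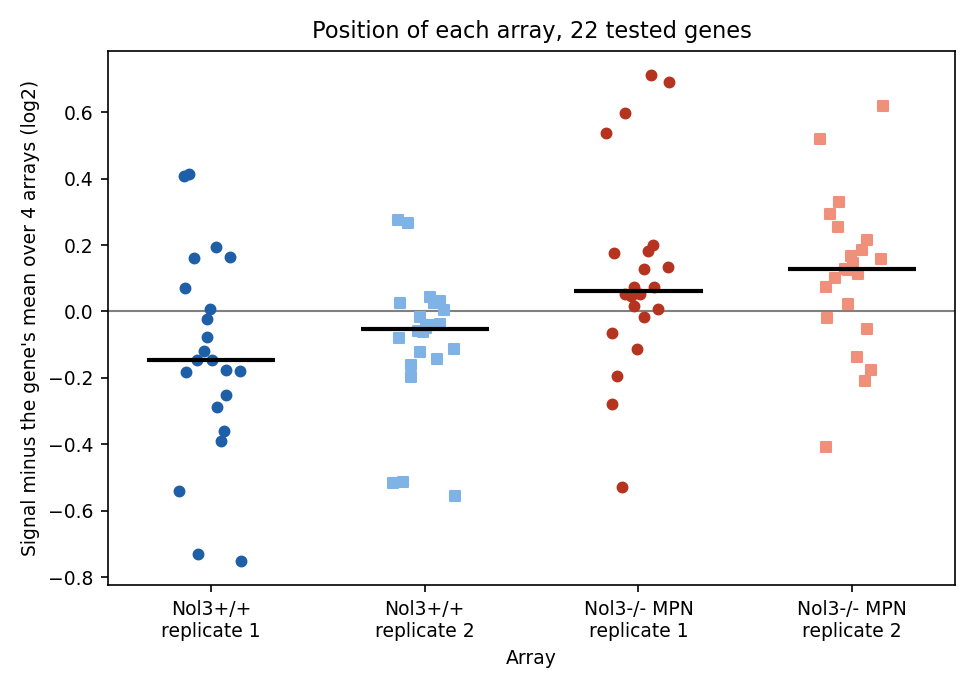
Signal of each of the 22 tested genes minus its own mean over the 4 arrays (y axis, log2) on each array (x axis), with a black line at the median. The medians are -0.15 and -0.05 for Nol3+/+ against 0.06 and 0.13 for Nol3-/- MPN, and the points of all arrays overlap.

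Several members had more than 1 array row, and rows of a gene did not always agree. The 25 members had 44 rows, of which 38 were distinct, since 6 rows of Rps12 held identical values and so did 2 of Rps19. Of 6 members with at least 2 distinct rows above the limit for dim genes, the rows of Rpsa, Rps26, Rps9 and Rps12 all lay above 0. The second row of Rps26 read 5.15 and 5.80 against 6.25 and 6.27, a difference of 0.79. Rps24 and Rps18 had rows of both signs. The used row of Rps24 differed by -0.17 and the other rows by 0.22 and 0.28, and in Rps18 the used row differed by 0.24 and the others by -0.15 and 0.32. Ribosomal protein genes have many processed pseudogenes with near-identical sequence, so a row may not separate a gene from its copies, and each single-gene value above carries that uncertainty.

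**Figure D4:**
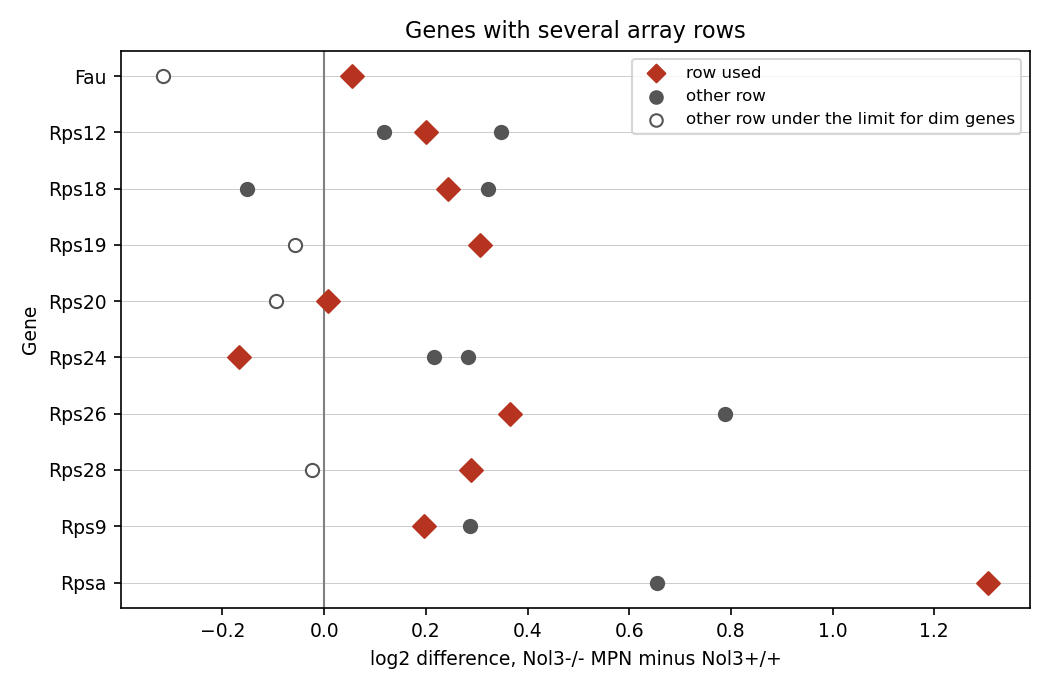
log2 difference between the groups (x axis) for every distinct array row of the 10 members with several rows (y axis). Red diamonds are the rows used, grey circles the other rows, open where the row lay under the limit for dim genes. The rows of Rpsa, Rps26, Rps9 and Rps12 lie above 0, and those of Rps24 and Rps18 lie on both sides. In Fau, Rps19, Rps20 and Rps28 the row used lies above 0 and the open row below 0.

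Other genes of small-subunit production and use were followed through fixed lists. Of 44 assembly factors, which build the subunit, 41 were tested. The difference was above 0 in 28, the median was 0.16, and an unadjusted p under 0.05 was reached by 1 higher gene and 0 lower ones, where 3.73% and 2.07% of all tested genes did. The smallest p-values were those of Utp11 (0.75, SE 0.22), Dcaf13 (0.81, SE 0.33) and Rrp9 (-0.36, SE 0.15), components of the processome that matures the 18S RNA. Of 19 tested initiation factors that bind the 40S subunit, 13 lay above 0 with a median of 0.08, with 2 higher and 1 lower at that p, to be read against the same shares. Eif3j1 and Eif3l, subunits of the scaffold factor eIF3, differed by 1.12 (SE 0.31) and 0.87 (SE 0.28), and Eif2s2, the beta subunit of the initiator-tRNA carrier eIF2, by -0.79 (SE 0.18). Single arrays weighed on several of these: Dcaf13 was at 0.40 without Nol3-/- MPN replicate 2, and without Nol3+/+ replicate 1 Eif3l was at 0.51 and Rrp9 at -0.22. All adjusted p-values named in this paragraph's lists were 0.841 or more by limma.

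Regulators act upstream of the subunit's synthesis. Of 13 tested genes of mTORC1, the S6 kinases and TOP control, 9 lay above 0 with a median of 0.08. At an unadjusted p under 0.05 by limma, 3.73% of all tested genes were higher and 2.07% lower. Each count in this paragraph is to be read against these shares. In the mTORC1 list 1 gene reached that p, the p90 ribosomal S6 kinase gene Rps6ka3 (0.63, SE 0.23). The part of the sex-linked signal in that difference was not tested. Next by p were Rptor at 0.19 and Rps6kb2 at 0.15. Without Nol3+/+ replicate 1 these 2 genes were at 0.09 and 0.03, and without Nol3-/- MPN replicate 1 at 0.10 and 0.0050. Of 9 tested ubiquitin and stalled-ribosome factors, 4 lay above 0 with a median of -0.02, and 0 reached that p by limma. Their smallest p-values were those of Ascc3 at 0.53, Usp21 at -0.24 and Otud3 at 0.13. Without Nol3+/+ replicate 2 Ascc3 was at 0.34 and Otud3 at -0.04, and without Nol3+/+ replicate 1 Usp21 was at 0.02. TOP messenger RNAs that do not encode ribosomal proteins had 11 of 13 members above 0, a median of 0.25 and 0 members at that p. Nap1l1, Eif3h and Eef1g differed by 0.35, 1.35 and 0.43, and Eif3h was carried by a low Nol3+/+ replicate 1 (6.57 and 8.58 against 9.22 and 8.62), without which it was at 0.34 and Eef1g at 0.22.

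Values of the families most like the small-subunit genes are set beside them. Large-subunit proteins had 25 of 36 tested genes above 0, 15 fully separated upward (19.7% of all tested genes were) and a median of 0.15. At an unadjusted p under 0.05 there were 6 higher genes and 1 lower, against 3.73% and 2.07% of all tested genes, and the smallest p-values were those of Rpl7l1 (-0.48), Rpl28 (0.49) and Rpl32 (0.54). No large-subunit gene reached a difference of 1, the largest being 0.66, whereas Rpsa and Rps10 did, as did 1 mitochondrial gene, Mrps33 (1.03, SE 0.60), named after its value was seen. Mrps33 read 5.57 and 7.28 against 7.78 and 7.13, and was at 0.17 without Nol3+/+ replicate 1. Small-subunit proteins of the mitochondrial ribosome, a separate particle, had 14 of 25 above 0 and a median of 0.04, led by Mrps5 at -0.58, Mrps18c at 0.42 and Mrps34 at 0.27. These families were not tested against one another. Rps3a1, a small-subunit gene that the symbol rule misses, read 11.25 and 11.20 against 11.11 and 11.09 (-0.12, SE 0.11), below in both arrays.

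**Figure D5:**
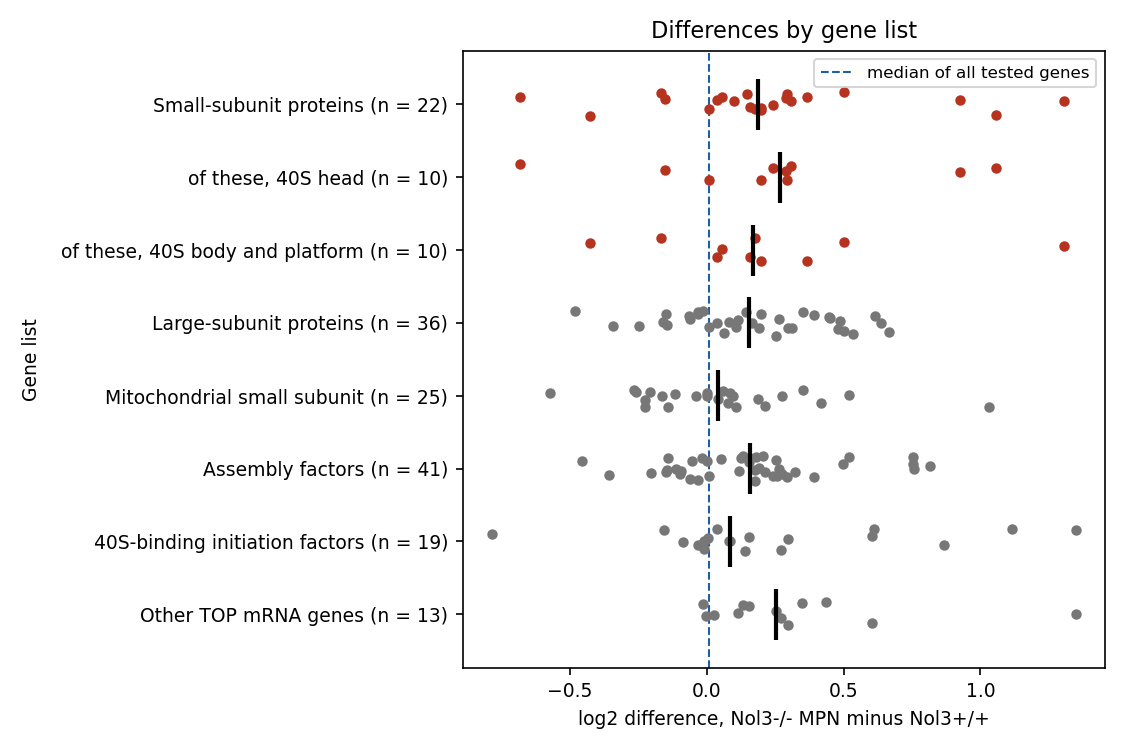
log2 difference between the groups (x axis) for the tested genes of each list (y axis, with the number tested), with a black line at each list's median and a dashed line at the median of all tested genes, 0.01. The medians are 0.19 for small-subunit, 0.15 for large-subunit and 0.04 for mitochondrial small-subunit proteins, and the points of all lists overlap.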

How the data were processed

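RNA was amplified by single-primer isothermal amplification and hybridised to whole-transcript Affymetrix arrays, per the labels' protocols. The authors deposited 1 normalized signal per row and array, treated here as log2 because the values run from 2.84 to 13.5, with base and normalization not given in the sources used here. Per the submitters' processing notes, the tools were Expression Console and Transcriptome Analysis Console from Affymetrix. Of 41345 rows, 23521 had 1 gene symbol in the platform annotation, 1814 several and 16010 none. The row with the highest mean stood for each of 22180 genes, of which 21991 were found in the RefSeq table (GRCm38.p6). Genes with a mean under the 25th percentile were left out, leaving 16635. Differences were fitted in R 4.3.3 by limma 3.58.1 (lmFit, eBayes with a variance trend, Benjamini-Hochberg over all genes tested), checked on simulated data. SE is limma's, and precision is limited by the number of arrays.

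Values on each array are given for the 5 higher and 5 lower members with the smallest p (only 4 were lower), paralogue pairs and the members of highest and lowest signal, and were extended to the rest. From each pathway list the 3 genes with the smallest p are named. Members, lists and tests were chosen with earlier results of these data known. Genes that fit the rule but had no row naming them alone were not analysed here. Alternatives covered the replicate block, each array left out, variance model, array weights, scaling, dim filter, row choice, sex-linked genes and membership.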

Additional observations from a re-analysis of the deposited data

How the results depend on the processing

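The median difference of the members stayed between 0.14 and 0.25 under all alternatives run. In the alternatives fitted by limma, which leave out the one that counts rows naming several genes, 0 members passed the adjusted threshold (3 to 6 at an unadjusted p under 0.05, 4 as reported), and the lowest adjusted p of a member was 0.188. The number of members above in both Nol3-/- MPN arrays, 12 as reported, was 10 after quantile normalization and 11 as the mean of all rows. With 1 array left out, where separation is easier to reach, it was 14 or 15. The number of members below in both Nol3-/- MPN arrays, 2 as reported, ranged from 2 to 5 with 1 array left out. It was 1 with the stricter filter, which drops Rps15. With the replicate number as a block, the median was 0.19 and 4 members reached an unadjusted p under 0.05 by limma. Calls over all genes went from 4 to 0 with that block. Without X- and Y-linked genes, calls over all genes were also 0. Those calls numbered 18 without Nol3+/+ replicate 1, 39 without Nol3+/+ replicate 2 and 0 without either Nol3-/- MPN array. Same-numbered arrays deviated together at r = 0.05 across genes, so little shared deviation was seen. With 2 arrays per group this cannot show whether same-numbered arrays were handled together. Of 22 members, 18 kept their sign. Fau ranged from -0.085 to 0.20 with 1 array left out and was -0.053 after quantile normalization and -0.13 as the mean of its rows. Rps20 ranged from -0.067 to 0.083 and was -0.0013 after quantile normalization, Rps4l ranged from -0.36 to 0.56, and Rps24 was 0.11 as the mean of its rows. For these sign changes the cause was not tested.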

Other observations

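Introns of ribosomal protein genes often carry small nucleolar RNAs, which guide the chemical modification of other RNAs. By position in RefSeq, 6 of the 25 members hold at least 1 such gene, and 4 of these small RNAs had a row naming 1 gene. Snora33, inside Rps12, read 9.18 and 9.47 (Nol3+/+) against 7.62 and 10.51 (Nol3-/- MPN), so its Nol3-/- MPN replicates lay on both sides of the other group (difference -0.25, SE 0.92). Snord15a, inside Rps3, read 6.60 and 5.003 against 5.39 and 5.63 (-0.29, SE 0.52). Snora62, inside Rpsa, was dim at 4.54 and 4.41 against 4.61 and 4.43, and AF357399, inside the dim member Rps16, at 4.02 and 4.09 against 4.38 and 4.20. No difference can be read from the last pair at that level. The hosts Rps12 and Rps3 had separate groups with higher values in Nol3-/- MPN, while the rows of Snora33 and Snord15a overlapped between the groups.

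A further 13 rows listed a symbol of the rule beside other symbols and were assigned to no gene. Of the 11 above the limit for dim genes, 7 differed upward, 5 of them with both Nol3-/- MPN arrays above both Nol3+/+ arrays, and 0 were separated downward, where the shares over all tested genes were 19.7% and 15.9%. Their median difference was 0.23, with a range from -0.47 to 0.95. Counting these rows beside the 22 tested members, a choice made after seeing the data, gave 33 values with a median of 0.20. Both Nol3-/- MPN arrays lay above both Nol3+/+ arrays in 17 of these and below both in 2.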
